A study of Mus musculus with 6 samples.

Results

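Among the Argonaute-bound small RNAs of mouse brain, 654 read sequences carried a miRNA name and another 6mer seed than the main seed of that miRNA. They were selected on the data: a read sequence entered when its RPM, averaged over the 6 libraries, was 10 or more and its seed, read positions 2 to 7, differed from the seed that held most reads of the same miRNA name. They came from 148 of the 1091 miRNA names in the table and formed 276 pairs of a miRNA and a seed. The whole table held 143934 read sequences, of which 60110 had a miRNA name, and 2827 of those reached 10 RPM. The other 2173 of these 2827 carried the main seed. The levels of the sequences and their standing below the main seed were therefore used to choose them and are given as descriptions.

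The study used Ago-RP-Seq on cortex and hippocampus combined from BL6 mice, which the methods give as male C57BL/6J animals. A FLAG-tagged GW182 peptide pulled down Ago1-4, and the RNA bound to them (R-sRNA) was sequenced. There were 3 libraries at 2 months of age (2M) and 3 at 18 months (18M), with no other treatment or allele named. No source used here says how many animals went into a library, so p-values measure the spread between these libraries. The libraries held 19272046 to 25080484 reads, recovered from the RPM steps, and 3 reads corresponded to 0.120 to 0.156 RPM, which covers counting error only. As a check of the tissue, 7 miRNAs of neurons, among them miR-124-3p and miR-9-5p, summed to 262067 to 277204 RPM at 2M and 235787 to 295460 RPM at 18M. Of the lists for other cells, 5 miRNAs of microglia and immune cells summed to 3401 to 3825 RPM at 2M and 2458 to 2997 RPM at 18M, with no overlap. Most of this sum was miR-150-5p, with main-seed reads at 2996, 3018 and 2762 RPM (2M) and 2321, 2001 and 2360 RPM (18M). Main-seed reads of miR-142a-3p (135, 246 and 158 RPM at 2M, 174, 99.7 and 188 RPM at 18M) and of miR-142a-5p overlapped, so not every miRNA listed showed the separation. The erythrocyte miRNAs miR-451a and miR-144-3p summed to 2356 to 3498 RPM at 2M and 1112 to 2736 RPM at 18M, and miR-486a-5p had no row. Those of oligodendrocytes (6659 to 13932 and 7556 to 11213 RPM), of vessels (9733 to 14952 and 8640 to 12249 RPM) and of pituitary or epithelium (37807 to 42622 and 27716 to 45470 RPM) overlapped between 2M and 18M. Their part in the age differences was not tested.

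A miRNA is cut from its hairpin by Drosha, which sets the 5′ end of the 5p strand, and by Dicer, which sets the 5′ end of the 3p strand. Because target recognition is read from the seed at the 5′ end, a cut that moves by a base gives the same RNA a different seed and other targets. Such molecules are called 5′ isomiRs. A seed can also change without a new cut, for example when an ADAR enzyme turns A into inosine, which is read as G. In the 6mer seed model that this study works with, each seed has a viability, the percent of cells that survive an siRNA with that seed, and a seed of low viability is called toxic.

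The sequences below show how a moved start changes the seed in the miRNAs that held many of these reads, each beside the most abundant read of the main seed. Capitals mark the seed, positions 2 to 7 counted from the 5′ end, and all are written as DNA, as in the deposited table.
miR-9-3p, main start: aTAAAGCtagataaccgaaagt
miR-9-3p, 1 base downstream: tAAAGCTagataaccgaaagt
miR-101a-3p, main start: tACAGTActgtgataactga
miR-101a-3p, 1 base upstream: gTACAGTactgtgataactga
miR-29a-3p, main start: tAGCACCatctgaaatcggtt
miR-29a-3p, 1 base upstream: cTAGCACcatctgaaatcggtt
miR-126a-3p, main start: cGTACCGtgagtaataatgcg
miR-126a-3p, 1 base upstream: tCGTACCgtgagtaataatgcg
miR-136-3p, main start: aTCATCGtctcaaatgagtct
miR-136-3p, 1 base upstream: cATCATCgtctcaaatgagtct
miR-136-3p, 1 base downstream: tCATCGTctcaaatgagtctt
miR-142a-3p, main start: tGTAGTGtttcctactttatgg
miR-142a-3p, 1 base downstream: gTAGTGTttcctactttatgga

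A second set shows seeds that changed with the start in place. In miR-376a-5p the substitution A4G and the move of the start by 1 base occurred separately and together, and miR-497a-5p carried A2G. Positions in these tokens are counted from the 5′ end of the main read, whose base comes first.
miR-376a-5p, main read: gGTAGATtctccttctatgagt
miR-376a-5p, A4G: gGTGGATtctccttctatgagt
miR-376a-5p, 1 base downstream: gTAGATTctccttctatgagt
miR-376a-5p, 1 base downstream with A4G: gTGGATTctccttctatgagt
miR-497a-5p, main read: cAGCAGCacactgtggtttgt
miR-497a-5p, A2G: cGGCAGCacactgtggtttgt

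Most of the 654 sequences did have a moved 5′ end. Of these, 340 from 120 miRNAs started downstream of the main read, so that the 5′ end was shorter, and 263 from 72 miRNAs started upstream. The upstream starts held 54.9% of the RPM of all 654 and the downstream starts 43.8%. Another 50 sequences from 19 miRNAs had the main start and a substitution within the seed, with 1.29% of the RPM, and the last was the miR-376a-5p read with both changes. For these 50 the name "shifted 5′ end" did not hold. A move of a single base was the rule: 278 sequences started 1 base downstream and 221 started 1 base upstream, and together these held 40.7% and 52.9% of the RPM. A start 2 bases away was seen in 48 downstream and 37 upstream sequences, and only 19 lay farther, 10 at 3 bases and 4 at 4 bases downstream and 5 at 3 bases upstream. Both directions were found in 45 miRNAs, upstream starts alone in 27 and downstream starts alone in 75.

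The moved starts were more abundant on 3p strands than on 5p strands. The 369 sequences from 3p strands held 81.4% of the RPM, while the 3p strands made 53.1% of all miRNA RPM. Over all reads of any level, 11.1% of 3p RPM and 3.99% of 5p RPM had another seed than the main one. The top 3 miRNAs, miR-124-3p, miR-9-3p and miR-101a-3p, are all 3p strands and held 51.1% of the RPM of the chosen sequences. The comparison of 3p with 5p was not repeated without them. On the 3p strand the upstream starts summed to 30232 RPM and the downstream starts to 18171 RPM. Without miR-124-3p, the largest contributor, the order turned, with 14889 RPM upstream and 16735 RPM downstream. On the 5p strand the downstream starts were larger in any case, with 8000 RPM against 2563 RPM upstream. By pairs, both strands had more downstream than upstream starts, 79 against 50 on 3p and 69 against 33 on 5p.

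The annotated start was not always the main one. RefSeq (GRCm38.p6) gave a mature sequence for 129 of the 148 miRNAs, and 128 of these could be aligned to the main read. The main start was the annotated one in 111, was 1 base downstream of it in 6, 1 base upstream in 6 and farther away in 5. In 16 pairs it was the less abundant read that had the annotated start. In the case of miR-126a-3p, the endothelial miRNA of the Egfl7 gene, the annotated start was the upstream one shown above and made 48.6% of its reads. Of miR-345-5p, 45.9% of the reads had the annotated start, 1 base downstream of the main one. Of miR-323-3p it was 43.0%, and of miR-411-5p 39.7%.

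Reads that start upstream hold bases that the main read does not, and these can be compared with the hairpin. All 299 downstream sequences that could be compared matched a hairpin of their miRNA. Of 209 upstream sequences, 159 matched, and these held 94.45% of the upstream RPM compared. The other 50 did not match, and 49 of them began 1 base upstream of the main read. Their first base was C in 23, A in 12, U in 12 and G in 2. The pairs whose leading read was of this kind were small. All 11 lay between 0.104% and 0.799% of their miRNA, with a median of 0.530%, whereas the 60 pairs that matched the hairpin had a median of 5.48% and reached 48.6%. Over the miRNAs with a main seed of at least 1000 RPM, an added C that is not in the hairpin made 0.268% ± 0.0181 (2M) and 0.264% ± 0.0270 (18M) of the main-seed reads (mean ± SD, n = 3; exact two-sided permutation test, p = 0.8). For an added A the shares were 0.131% ± 0.00764 and 0.122% ± 0.0145 (mean ± SD, n = 3; exact permutation test, p = 0.5). The cause of these added bases was not tested. The leading upstream reads of let-7a-5p, let-7b-5p, let-7c-5p, miR-26a-5p, miR-125b-5p and miR-22-3p were of this kind.

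A few miRNAs held most of the shifted reads. The 654 sequences summed to 59786 RPM, or 6.23% of all miRNA RPM, and miR-124-3p alone held 28.1% of this, the first 3 miRNAs 51.1% and the first 10 71.9%. The median sequence was at 20.9 RPM and the highest at 5487 RPM, and all 654 had reads in each of the 6 libraries. In contrast, among shifted pairs 155 of 233 made up less than 5% of their miRNA, and 30 made up 25% or more. Reads of any other seed made 1.32% to 68.4% of a miRNA, with a median of 6.45%. In 36 of the 148 miRNAs the share was 25% or more, and in 21 it was 40% or more.

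The largest was the upstream start of miR-124-3p, the most abundant miRNA of neurons. Its RPM was 16664, 16438 and 17116 in the 2M libraries and 12536, 17675 and 12348 in the 18M libraries. The ages overlapped, since 18M replicate 2 had the highest value. The log2 difference, 18M minus 2M, was -0.26 with an SE of 0.16 (limma, adjusted p = 0.517). As a share of miR-124-3p the fraction was 12.9% to 13.3% in all 6 libraries. The downstream start of the same miRNA made 1.04% to 1.26%.

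In miR-9-3p, the passenger strand of the neuronal miR-9 hairpins (Mir9-1 in chr3:88215652-88215673, Mir9-2 in chr13:83738858-83738879 and Mir9-3 in chr7:79505318-79505339, all within long noncoding RNA genes), the downstream start nearly equalled the main one. It was at 9224, 9783 and 9583 RPM at 2M and 8581, 9275 and 7693 RPM at 18M, with overlap. Its share of miR-9-3p was 48.6% to 49.6% in the 6 libraries. The guide strand miR-9-5p had 3.97% to 4.88% of its reads at the downstream start, with no overlap between the ranges of the strands.

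miR-101a-3p (Mir101a, chr4:101346957-101346977, minus strand, in an exon of the long noncoding RNA gene E130102H24Rik) had 44.9% of its reads at the upstream start. The reads of that start were at 3724, 3350 and 4862 RPM at 2M and 6186, 5169 and 5431 RPM at 18M. All 18M libraries lay above all 2M libraries. The difference of 0.51 on the log2 scale (SE 0.17) did not pass the test over all pairs (limma, adjusted p = 0.277). The main-seed reads differed by 0.66 on the same scale, and the share of the upstream start lay within 42.6% to 47.7%. Its paralog miR-101b-3p (Mir101b, chr19:29135338-29135356, in an intron of Rcl1) had 28.6% to 35.1% of its reads at the same upstream start, which is the annotated one. Both upstream reads have the same seed.

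The miR-29 family shared another upstream start. The reads of miR-29a-3p (Mir29a, chr6:31062673-31062694, minus strand) at that start were at 2316, 2632 and 2413 RPM at 2M and 3317, 2482 and 3432 RPM at 18M, with 18M replicate 2 inside the range of 2M. They made 7.29% to 9.67% of this miRNA, and the like start of miR-29b-3p made 3.26% to 4.56%. The upstream start of miR-126a-3p (Mir126a, chr2:26591402-26591423, overlapping an exon of Egfl7) was at 3448, 3817 and 1915 RPM at 2M and 2588, 1893 and 2861 RPM at 18M. Its share ran from 46.3% to 55.2%, a wider range than those of miR-124-3p and miR-9-3p, and the ages overlapped.

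Of a list of 20 miRNAs known from the field for 5′ isomiRs, 11 had a sequence among the 654: miR-101a-3p, miR-101b-3p, miR-9-5p, miR-124-3p, miR-29a-3p, miR-29b-3p, miR-142a-3p, miR-183-5p, miR-140-3p, miR-411-5p and miR-133a-3p. The blood cell miRNA miR-142a-3p had 44.9% of its reads 1 base downstream (40.5% to 50.8% in the libraries), and the seed viability of these was 57.6% against 75.8% for the main start. miR-140-3p had 46.4% of its reads 1 base downstream (34.4% to 49.5%) with nearly the same viability as the main start, 58.8% against 58.7%. The sensory miRNA miR-183-5p had 15.8% downstream (14.9% to 16.7%). None of the 33 pairs of this list and none of its 11 ratios passed the age test described below. Of all features tested, 1.08% of 930 pairs and 0.422% of 237 ratios passed. At such shares a list of this size cannot be told apart from the rest.

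Weighted by reads, the seeds of the 654 sequences had a lower viability than the main seeds of the same miRNAs. Their mean viability was 48.6%, 48.1% and 48.9% in the 2M libraries and 49.4%, 48.8% and 49.3% in the 18M libraries. The main-seed reads of the same 148 miRNAs were at 58.0% to 58.9%. The difference was -9.72 percentage points ± 0.740 (SD, n = 6), with the same sign in 6 of 6 libraries (exact sign-flip permutation test over libraries, p = 0.0312, the smallest this design allows; adjusted over 6 such measures, 0.0312). The libraries hold the same sequences, so this p says only that their weights gave the same sign each time. Reads with a viability under 40% made 45.0% of the shifted and substituted reads and 9.83% of the main-seed reads.

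This gap rested on a few abundant miRNAs. For miR-124-3p the upstream start had a viability of 31.2% and the downstream start of 30.4%, against 57.3% for its main seed. Without miR-124-3p, miR-9-3p and miR-101a-3p the difference was -3.52 points. With each miRNA weighted equally it was -2.47 points. With each pair counted once, the median change was 2.10 points in the other direction: 124 pairs had a lower viability than the main seed of their miRNA, 150 had a higher one and 2 an equal one. With a limit of 1 RPM the median was 0.10 points, with 613 pairs lower and 622 higher. Weighted by RPM the median over pairs was -22.40 points. Of the 7 pairs of at least 1000 RPM, 6 were lower, while of the 83 pairs of at least 100 RPM, 33 were lower.

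The changes in single pairs were wide and went both ways, from a fall of 67.7 points to a rise of 61.9 points. A fall of over 20 points was seen in 70 pairs and a rise of over 20 points in 50. The direction went with the viability of the main seed. Of the 101 pairs whose main seed had a viability of 70% or more, 70 were lower, and of the 41 whose main seed was under 40%, 33 were higher. For comparison, the 4032 seeds of the whole table had a median viability of 63.9%. Upstream and downstream pairs were alike in their medians, 1.6 and 3.1 points.

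Among pairs of at least 100 RPM, the 5 largest falls in viability were found in miR-136-5p and miR-136-3p, which come from the imprinted region of chromosome 12, and in miR-330-3p and miR-384-3p. The reads not yet shown are given with their main reads.
miR-136-5p, main start: aCTCCATttgttttgatgatgg
miR-136-5p, 2 bases upstream: gGACTCCatttgttttgatgat
miR-330-3p, main start: cAAAGCAcagggcctgcagaga
miR-330-3p, 1 base upstream: gCAAAGCacagggcctgcagaga
miR-384-3p, main start: aTTCCTAgaaattgttcacaat
miR-384-3p, 1 base downstream: tTCCTAGaaattgttcacaat
In miR-136-5p (Mir136, chr12:109595331-109595352) the start 2 bases upstream took the viability from 71.4% to 3.7%. It was a small part of the miRNA, 0.529% to 2.26% of its reads, at 127, 142 and 140 RPM at 2M and 134, 59.1 and 130 RPM at 18M. In miR-136-3p, from the same hairpin, both shifts lowered the viability, from 83.4% to 37.3% upstream and to 30.2% downstream. There the shifted reads were a large part, since the upstream start made 26.7% to 36.8% and the downstream start 10.8% to 19.0% of the miRNA. The upstream, annotated start of miR-330-3p (Mir330, chr7:19181525-19181547, overlapping an exon of Eml2) had 18.3% against 70.4%, and the downstream start of miR-384-3p (Mir384, chrX:105344292-105344313, minus strand) 44.3% against 83.5%.

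Among pairs of at least 100 RPM, the 5 largest rises were all in downstream starts, of miR-24-3p, miR-138-5p, miR-137-3p and miR-873a-5p. Their reads show which bases entered the seed.
miR-24-3p, main start: tGGCTCAgttcagcaggaacag
miR-24-3p, 1 base downstream: gGCTCAGttcagcaggaacagt
miR-138-5p, main start: aGCTGGTgttgtgaatcaggccg
miR-138-5p, 1 base downstream: gCTGGTGttgtgaatcaggccg
miR-137-3p, main start: tTATTGCttaagaatacgcgt
miR-137-3p, 2 bases downstream: aTTGCTTaagaatacgcgtagt
miR-873a-5p, main start: tGCAGGAacttgtgagtctcct
miR-873a-5p, 1 base downstream: gCAGGAActtgtgagtctcct
Reads of miR-24-3p that started 1 base downstream had a viability of 77.3% and those that started 2 bases downstream 71.7%, against 31.8% for the main seed. They made 2.23% and 1.09% of the miRNA. For the synaptic miR-138-5p, the start 1 base downstream had 75.1% against 34.5% and made 0.947% of the reads. In miR-137-3p (Mir137, chr3:118433901-118433923), a miRNA of neuronal differentiation, the start 2 bases downstream had 87.0% against 51.3% and made 7.91% to 11.7% of the reads. The start 1 base downstream of miR-873a-5p, the annotated one, had 82.2% against 47.6%. Its level was 56.1, 282 and 63.9 RPM at 2M and 102, 29.2 and 71.0 RPM at 18M, so 2M replicate 2 stood far above the rest.

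The first base lies outside the seed, but a moved start replaces the first base of the main read, so the values on it follow in part from the choice of the sequences and are a description. Argonaute proteins bind the 5′ base in a pocket that favours U. Of the shifted and substituted reads, 54.5%, 56.5% and 52.5% began with U at 2M and 47.7%, 51.9% and 47.1% at 18M. Of the main-seed reads of the same miRNAs, 76.0% to 81.6% did. The difference was -26.7 points ± 4.51 (SD, n = 6), negative in 6 of 6 libraries, which hold the same sequences, and it was -50.9 points without the 3 miRNAs that held most of the reads. C and G took the place of U: C began 18.3% of the shifted and substituted reads against 2.08% of the main-seed reads, and G 16.5% against 0.970%. Their mean length was 21.5 nt against 21.7 nt.

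Some shifted seeds were the main seeds of other miRNAs. This was so for 30 of the 233 shifted pairs, counting owners of at least 100 RPM. The start 1 base upstream of miR-128-3p had the seed of miR-27a-3p and miR-27b-3p, and the start 1 base downstream of these miR-27 miRNAs had the seed of miR-128-3p. The start 1 base downstream of miR-16-5p and of miR-15a-5p had the seed of miR-103-3p and miR-107-3p. In 8 let-7 miRNAs the start 1 base downstream had the seed of miR-1839-5p. The upstream starts of miR-101a-3p and miR-101b-3p shared their seed with the main start of miR-582-5p.

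Of the 51 sequences with a substitution, 21 were A to G, 10 C to A, 7 G to T, 6 C to T, 6 T to C and 1 G to A. The A-to-G reads of miR-376a-5p (Mir376a, chr12:109723786-109723807), whose hairpin family is a known ADAR target, were the largest fraction. A4G was at 47.1, 82.1 and 50.9 RPM at 2M and 53.7, 39.3 and 52.5 RPM at 18M. This was 39.1% to 45.6% of the sum of A4G and main-seed reads in the 6 libraries, and the ages overlapped. The seed viability was 38.8% for the main read, 50.2% with A4G and 84.6% with A4G and the start moved 1 base downstream. Together with the read without A4G that starts 1 base downstream, at 27.2% of the miRNA, the other seeds made 66.5% to 72.8% of miR-376a-5p, so that the main seed was the smaller part.

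In miR-467a-5p the A-to-G read was at 25.2, 36.95 and 30.88 RPM at 2M and 19.24, 17.14 and 24.21 RPM at 18M, which did not overlap, but the log2 difference of -0.59 (SE 0.19) did not pass the test (limma, adjusted p = 0.260). As a part of A-to-G plus main-seed reads it was 9.78%, 11.3% and 10.8% at 2M and 12.7%, 14.0% and 14.4% at 18M, so this fraction was higher at 18M while the RPM was lower.

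A2G of miR-497a-5p (Mir497, chr11:70234730-70234751), of the miR-15/16 family, was at 33.1, 18.8 and 24.6 RPM at 2M and 54.7, 36.0 and 40.4 RPM at 18M. As a part of A2G plus main-seed reads it was 3.19%, 3.42% and 3.85% at 2M and 6.25%, 5.89% and 4.76% at 18M. All 3 libraries of 18M lay above those of 2M, but the age difference of the pair, 0.77 on the log2 scale (SE 0.24), did not pass the test (limma, adjusted p = 0.247). Its viability was 9.7% against 37.8% for the main seed. Of the same kind, A4G of miR-384-5p made 1.38% and A4G of miR-335-5p 0.973%. In let-7a-5p, let-7b-5p, let-7c-5p, let-7f-5p, miR-132-3p, miR-22-3p and miR-128-3p, A-to-G reads made 0.104% to 0.146%, close to the 0.141% of a T-to-C read of miR-9-5p. In the miR-29 family A2G made 0.322% of miR-29c-3p, 0.112% of miR-29b-3p and 0.0736% of miR-29a-3p. A4G made 0.0377% of miR-26a-5p, and A-to-G reads 0.0453% of miR-124-3p. Of a list of 17 miRNAs known for editing in the seed, 7 had any sequence among the 654, and these 2, miR-376a-5p and miR-497a-5p, had one with a substitution.

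The next comparison asked whether the other-seed reads changed between 2M and 18M. They made 6.33%, 6.23% and 6.33% of miRNA reads at 2M and 6.06%, 6.44% and 5.97% at 18M. The ages overlapped, since 18M replicate 2 was the highest, and the difference was -0.142 points (exact two-sided permutation test, p = 0.4, where 3 against 3 libraries allow 0.1 at least). Their mean viability was 48.5% ± 0.407 (2M) and 49.2% ± 0.310 (18M) over 3 libraries each, and the ages overlapped (exact permutation test, p = 0.2, adjusted over 4 measures 0.267). The viability gap to the main seeds was -10.3 points ± 0.367 (2M) and -9.15 ± 0.510 (18M), and the ages did not overlap (exact permutation test, p = 0.1, adjusted 0.2). A part of this lay in the main-seed reads, at 58.8% ± 0.0915 (2M) and 58.3% ± 0.315 (18M), also without overlap. With each miRNA weighted equally the gap was -2.48 points ± 0.0658 (2M) and -2.45 ± 0.0484 (18M), with overlap (exact permutation test, p = 0.7). The gap in the share of U at the first base was -23.0 points ± 3.3 (2M) and -30.3 ± 0.642 (18M), again with no overlap (exact permutation test, p = 0.1, adjusted 0.2). With 3 libraries an age, none of these p-values could pass 0.05.

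Upstream starts made 54.7% ± 0.361 (2M) and 55.0% ± 0.630 (18M) of the reads of the 654 sequences, and downstream starts 44.0% ± 0.351 and 43.6% ± 0.616 (mean ± SD, n = 3; exact permutation test, p = 0.6 each, adjusted over 4 classes 0.7). Both overlapped. Substitutions at the main start were 1.28%, 1.24% and 1.22% at 2M and 1.30%, 1.31% and 1.37% at 18M, with no overlap and a difference of 0.0788 points (exact permutation test, p = 0.1, adjusted 0.4).

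In single read sequences, 1 of the 654 had an adjusted p under 0.05 (limma on log2(RPM + 1)), where 0.366% of all 3281 tested sequences did. Without adjustment 62 had a p under 0.05, or 9.48%, against 13.0% of all tested, and 38 of the 62 were higher at 18M. The median log2 difference was 0.01 over the 654 and 0.02 over all. The sequence that passed was a read of miR-496a-3p starting 2 bases upstream, at 22.96, 25.07 and 32.31 RPM at 2M and 10.22, 10.23 and 8.999 RPM at 18M (limma, adjusted p = 0.0391). Its 18M mean of 9.82 RPM lay under the limit of 10 RPM, so it entered the 654 only through 2M and its difference is given as a description. Of the 654, 39 had a 2M mean under the limit and 30 an 18M mean under it. Summed by miRNA and seed, 2 of the 276 pairs passed, both lower at 18M, where 1.08% of all 930 tested pairs passed. Neither passed with median-of-ratios scaling (adjusted p = 0.0537 for each) or with edgeR on the recovered reads (0.0547 for each). Without adjustment 36 (13.0%) had a p under 0.05, against 14.0% of all pairs. Of the 36, 14 were higher at 18M, and with median-of-ratios scaling 25 of 40 were. These shares were close to or below those of all features.

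The pair with the lowest adjusted p was the annotated, upstream start of miR-496a-3p (Mir496a, chr12:109739165-109739186, in an intron of Mirg), and the other was a start of miR-22-3p (Mir22, chr11:75463772-75463793, overlapping an exon of Mir22hg). The leading reads of both are shown with the main reads.
miR-496a-3p, main start: aGTATTAcatggccaatctcc
miR-496a-3p, 2 bases upstream: tGAGTATtacatggccaatct
miR-22-3p, main start: aAGCTGCcagttgaagaactgt
miR-22-3p, 1 base upstream: cAAGCTGccagttgaagaactgt
The upstream reads of miR-496a-3p were at 48.9, 58.6 and 61.7 RPM at 2M and 29.3, 29.0 and 24.5 RPM at 18M. Each 18M library lay below each 2M library, and the log2 difference was -1.003 with an SE of 0.146 (limma, adjusted p = 0.0423). The leading read of this pair is the sequence above that was chosen only through 2M, so the difference of the pair is also given as a description. The main-seed reads of this miRNA, at 308, 330 and 313 RPM (2M) and 241, 270 and 220 RPM (18M), differed by -0.38 on the same scale. The upstream reads of miR-22-3p were at 79.0, 79.2 and 68.0 RPM at 2M and 39.99, 43.8 and 46.9 RPM at 18M, again with no overlap (-0.78, SE 0.13; limma, adjusted p = 0.04999). The main-seed reads of miR-22-3p were at 19977, 19496 and 17250 RPM at 2M and 16866, 13530 and 15593 RPM at 18M. They differed by -0.31 on the same scale, also with no overlap. The upstream reads made 0.233% to 0.399% of miR-22-3p, and the C at the start of the leading read is not in the hairpin. The pair sums reads of any first base. Reads 1 base upstream whose first base is not in the hairpin averaged 21.5 RPM for C, 13 for U and 6.62 for G. Added bases were thus a large part of the pair, but not all of it. Relative to main-seed reads, the added C made 0.182%, 0.134% and 0.119% at 2M and 0.0855%, 0.123% and 0.0973% at 18M, with overlap. When 1 library was left out, the adjusted p of miR-496a-3p ran from 0.0397 to 0.163 and that of miR-22-3p from 0.0484 to 0.240, and both passed only without 18M replicate 2.

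The ratio of other-seed to main-seed reads varied little between libraries. Over the 148 miRNAs, the SD of its log2 value within an age had a median of 0.128, whereas the mean log2 ratio ranged from -6.22 to 1.11 between miRNAs. The SD of the log2 level of the same miRNAs had a median of 0.203, and in 118 of the 148 the ratio varied less than the level. Between the ages the median absolute change of the log2 ratio was 0.09, with a median SE of 0.10. It was under 0.2 in 122 of 148 miRNAs and over 0.5 in 3. The ratio passed in 1 of the 148 (limma, adjusted p under 0.05), where 0.422% of the 237 tested miRNAs passed, and 14 of the 148 (9.46%) had an unadjusted p under 0.05, against 10.1% of all tested. A p that misses the threshold does not show that a ratio stayed the same.

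The ratio that passed was that of miR-543-5p, a miRNA of the chromosome 12 cluster (Mir543, chr12:109717269-109717289) with few reads.
miR-543-5p, main start: gAAGTTGcccgcgtgtttttcg
miR-543-5p, 1 base downstream: aAGTTGCccgcgtgtttttcg
The only chosen sequence of this miRNA was at 13.86, 13.59 and 16.73 RPM at 2M and 7.521, 8.571 and 10.6 RPM at 18M. Its 18M mean of 8.90 RPM lay under the limit of 10 RPM, so the miRNA was chosen only through 2M and the call supports nothing further. Other seeds made 38.2%, 39.2% and 42.1% of this miRNA at 2M and 26.5%, 28.1% and 29.6% at 18M, so the ages were apart. The log2 ratio differed by -0.73 (SE 0.09; limma, adjusted p = 0.0363), while the main-seed reads, at 34.7 to 39.5 RPM, differed by -0.01. Its downstream start, the annotated one, had a viability of 24.0% against 71.7% for the main seed. When 1 library was left out the adjusted p lay between 0.0556 and 0.176, so the call rested on all 6 libraries. Next in order of p were miR-496a-3p, with a log2 ratio change of -0.57 (limma, adjusted p = 0.0529), and miR-497a-5p, with 0.48 (adjusted p = 0.198). For miR-496a-3p the limit stated above holds here too, since its leading upstream read was chosen only through 2M. The largest rise was that of miR-127-5p, 0.73 (SE 0.22; limma, adjusted p = 0.363). Other seeds made 38.1%, 31.8% and 34.8% of miR-127-5p at 2M and 38.9%, 50.5% and 52.3% at 18M.

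The limit of 10 RPM cut through a continuous range. Just inside were reads of miR-136-5p at 10.007 RPM and miR-101a-3p at 10.039 RPM, and just outside were reads of miR-154-3p at 9.997 RPM and miR-124-3p at 9.991 RPM. The 654 sequences held 79.9% of the RPM of all 33721 miRNA reads with another seed than the main one. The first 18 bases of 115 of the 654 occurred in hairpins of more than 1 gene, so these cannot be given to a single locus.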

How the data were processed

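Small RNA reads bound to Ago1-4 were compared in 3 libraries each of 2M and 18M mouse cortex with hippocampus, grouped by sample title. Per the methods, the authors trimmed (Trim Galore, per the submitters' processing notes), collapsed and annotated reads with SPOROS and deposited them in RPM, scaled to the same total per library. The 6mer seed viability is a deposited score, the authors' mean percent viability of 3 mouse cell lines. Aligner versions were not given in the sources used here. No per-sample column lay outside the 6 libraries (0). RPM steps gave whole reads for 100% of values (tolerance 0.0011 RPM). The first 15 bases of each read were aligned to the leading main-seed read with shifts up to 8 bases.

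Sequences, pairs and miRNAs averaging 10 RPM or more were fitted with limma 3.58.1 in R 4.3.3 on log2(RPM + 1), eBayes with trend, or without trend for log2 ratios of other-seed to main-seed RPM (pseudocount 1). P-values were adjusted over all features by Benjamini-Hochberg, and fold changes are on the log2(value + 1) scale, which understates low features. Per-library measures used exact permutation tests (scipy 1.17.1, Python 3.11.15, numpy 2.4.6, pandas 2.3.3). edgeR 4.0.16 and DESeq2 1.42.0 on recovered reads were alternatives. The fits were checked on simulated data. No libraries were duplicates (chi-square per degree of freedom at least 32.8 over the 654 sequences). Lists covered known 5′ isomiRs, known seed editing, pituitary or epithelium, erythrocytes, vessels, neurons, oligodendrocytes, and microglia with immune cells. Named pairs were those with the most reads, with age calls, with the largest viability changes among pairs of at least 100 RPM, with A-to-G changes, on the isomiR list or next to the limit; others were named as examples after their values were seen. The members, lists and tests were chosen with earlier results of these data known. Loci are RefSeq GRCm38.p6 and host genes GENCODE M21 (GRCm38).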

Additional observations from a re-analysis of the deposited data

How the results depend on the processing

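Few of the age calls held under the alternatives. Read sequences with an adjusted p under 0.05 numbered 1 of 654 and became 0 for a limit of 1 or 100 RPM, 17 with DESeq2 and 0 in each fit without 1 library. At an unadjusted p the counts without 1 library were 30 to 108 sequences, 17 to 58 pairs and 7 to 17 ratios. For the counts under the alternatives the shares over all features are not given here. They show only how the counts vary and are no result about the chosen sequences. Pairs called numbered 2 and became 4 for a limit of 1 RPM, 0 for 100 RPM, for median-of-ratios scaling and for edgeR, 1 without the trend, 12 with DESeq2 and 0 to 6 without 1 library. Ratios called numbered 1 and became 2 with a pseudocount of 0.1 or with the trend, 0 for a limit of 1 or 100 RPM, and 0 in each fit without 1 library. The other-seed reads behind the calls of the main fits all lay under 100 RPM. That limit left them untested, so its counts of 0 say nothing about those calls. With the replicate number as a block all 3 counts were 0 (48, 24 and 11 unadjusted; adjusted p = 0.18 for both called pairs), and the numbers did not pair the libraries (correlations of same-numbered deviations -0.121, -0.0942 and -0.136).

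The age difference in share turned to 0.0176 points, and that in viability to -0.847 points, without the 3 miRNAs with the most member reads. The upstream share turned to -0.0211 points with at least 1 RPM and ran from -0.0981 to 0.490 without 1 library. Without 1 library the downstream share ran from -0.580 to 0.00899 and the doubly changed read from -0.00551 to 0.00183. With at least 1 RPM the class of that read was at 0.0106. There it takes in any read that is neither a plain shift nor a single substitution at the main start. The viability and first-base gaps kept their sign, at -9.93 to -9.52 and -28.1 to -25.8 points without 1 library, where 5 libraries allow no p under 0.0625. The median change over pairs turned to -22.40 points when weighted by RPM. With at least 100 RPM no substitution class was left to compare. The cause of these changes was not tested.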
